A study of Homo sapiens with 18 samples.

Results

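The genes described here encode parts of the Notch pathway in U251 cells, an established human glioblastoma line: the ligands JAG1 and JAG2, the receptors NOTCH1, NOTCH2 and NOTCH3, the fringe enzymes LFNG, MFNG and RFNG, and the target genes HES1 and HEY1. They are 10 of the 19775 genes on the array that have a probe set annotated to a single gene. Together they have 27 such probe sets. For each gene the main probe set was selected on measured values, as the one with the highest mean of log2(intensity + 16) over all 18 arrays, treated and solvent together, and its other probe sets served as a check. For HES1 the choice was close, since its top 2 probe sets averaged 808.2 (the main one) and 810.1 on the linear scale. Cells in RPMI medium with 5% serum received enzastaurin, an inhibitor first aimed at the beta isoform of protein kinase C, or its solvent DMSO, for 4, 10 or 18 h. Each of these 6 groups has 3 arrays. The dose is not stated in the labels used here, and U251 is a single cell line, so the values speak for that line only. The series is titled for a study of glioma cell death under inhibition of the kinase GSK3.

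Notch receptors are activated by ligands of the Jagged and Delta-like families on a neighbouring cell. Binding lets ADAM proteases and then gamma-secretase cut the receptor, and the freed intracellular domain joins the DNA-binding protein RBPJ and a Mastermind coactivator to switch on genes such as HES1 and HEY1, which encode transcriptional repressors. Fringe enzymes add N-acetylglucosamine to O-fucose on the receptor in the Golgi and so alter which ligands it responds to. In glioma the pathway has been studied for its part in keeping cells in a stem-like state.

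Promoter windows of 250 bases before and 50 bases after a transcription start were taken from RefSeq (GRCh38.p14) and matched for 8 of the 10 genes, in 9 windows. The letters TGGGAA, the core of the RBPJ recognition sequence, were searched on both strands. They occurred in 24.0% of 35116 human promoter windows of this length, and at least 2 copies in 3.8%. Among the windows of the listed genes they were found in HES1 and LFNG, and these 3 windows are shown because HES1 is the textbook Notch target and LFNG had the largest change among the members. Capitals mark TGGGAA, or TTCCCA where the match is on the opposite strand. In order they are chr3:194135898-194136197, chr7:2512279-2512578 and chr7:2517613-2517912, all on the plus strand.
HES1: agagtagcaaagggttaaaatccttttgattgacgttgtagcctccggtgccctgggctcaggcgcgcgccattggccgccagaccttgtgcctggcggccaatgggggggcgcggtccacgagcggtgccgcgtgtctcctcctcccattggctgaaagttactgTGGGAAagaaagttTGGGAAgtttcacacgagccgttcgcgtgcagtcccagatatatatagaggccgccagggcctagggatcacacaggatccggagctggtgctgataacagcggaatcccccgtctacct
LFNG start site 1: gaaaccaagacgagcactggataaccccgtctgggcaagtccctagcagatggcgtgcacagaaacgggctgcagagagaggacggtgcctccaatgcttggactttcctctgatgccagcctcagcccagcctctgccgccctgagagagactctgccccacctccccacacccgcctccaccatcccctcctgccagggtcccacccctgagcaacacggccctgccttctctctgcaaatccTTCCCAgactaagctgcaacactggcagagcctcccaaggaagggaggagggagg
LFNG start site 2: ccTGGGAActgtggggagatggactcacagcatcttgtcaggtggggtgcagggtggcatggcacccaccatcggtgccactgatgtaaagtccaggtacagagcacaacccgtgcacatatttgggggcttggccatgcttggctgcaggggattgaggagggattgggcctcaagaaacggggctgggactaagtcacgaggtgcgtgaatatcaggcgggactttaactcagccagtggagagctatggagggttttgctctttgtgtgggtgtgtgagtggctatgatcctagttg
The HES1 window holds 2 copies, whose leftmost bases lie 84 and 70 bases before the start, and the first of them is part of the longer GTGGGAA, which 6.2% of windows contain. Each LFNG window holds 1 copy, 5 bases before the start on the minus strand at the first site and 248 bases before it at the second. The N-box letters CACNAG, to which HES proteins bind, occurred 4 times in the HES1 window and once at the second LFNG site. They occurred once each in NOTCH2 and NOTCH3, and in 38.0% of all windows. In NOTCH1 they matched 2 times, on opposite strands of 1 overlapping stretch across the start. A match is a run of letters and was not measured as a bound site.

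Every array had been scaled by the authors to nearly the same level, and array medians lay between 99.2 and 125.9. Whether the 3 arrays of a group came from separate cultures is not stated in the labels. The p-values set a change against the scatter of these arrays only, and that scatter may be technical. Of 10 astroglial and glioma markers 8 passed the level filter, among them VIM, NES and SOX2, while GFAP (median intensity 17) and S100B (11) were near the floor. Of the marker lists of other cell types, 1 of 4 measured leukocyte genes, 1 of 5 endothelial genes, 3 of 4 neuronal genes, 2 of 3 oligodendrocyte genes and 0 of 4 epithelial genes passed it. The summed levels of 3 of these lists did not overlap between treatments at one of the times. Groups of 3 arrays can separate fully without a treatment effect, and the share of all genes that do so was not computed. This limit holds for every lack of overlap given below. The neuronal sum lay between 1225.9 and 1427.5 in the 18 h enzastaurin arrays and between 961.8 and 1060.7 in the 18 h DMSO arrays, and of its measured genes SNAP25, SYT1 and SLC17A7 passed the filter and RBFOX3 did not. The oligodendrocyte sum lay between 257.9 and 295.4 in the 18 h enzastaurin arrays and between 357.1 and 402.1 in the 18 h DMSO arrays, with MBP and MOG past the filter and MAG under it. The epithelial sum lay between 141.6 and 195.1 in the 4 h enzastaurin arrays and between 220.7 and 307.7 in the 4 h DMSO arrays, with every measured gene under the filter. The part of these lists in the results was not tested.

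Enzastaurin-treated cells held less JAG1 mRNA than DMSO cells at all 3 times, and far less LFNG mRNA at 10 and 18 h. HEY1 mRNA was lower in enzastaurin at 4 and 10 h and higher at 18 h. HES1, NOTCH1, NOTCH2, JAG2 and RFNG were not called at any time, and NOTCH3 and MFNG lay below the level filter (an intensity near 102, the median of all probe sets), so they were not tested. Changes are differences of group means of log2(intensity + 16), enzastaurin minus DMSO, and a gene was called at an adjusted p under 0.05 (limma, Benjamini-Hochberg over the 12376 genes that passed the filter). At 4 h 2 of the 8 tested members were called, both lower, where 1.81% of all genes were called and 1.25% were called lower. At 10 h 3 of 8 were called, all lower, against a background of 8.45% called and 4.69% called lower. At 18 h 3 of 8 were called, 2 lower and 1 higher, where 16% of all genes were called, 7.90% lower and 8.10% higher. The median change of the 8 members was -0.156 at 4 h, -0.198 at 10 h and -0.091 at 18 h, beside 0.001, -0.016 and 0.001 over all tested genes. The members were chosen with earlier results of these data known. Member counts and medians, here and below, therefore do not test whether the set responds more than other genes.

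**Figure D1:**
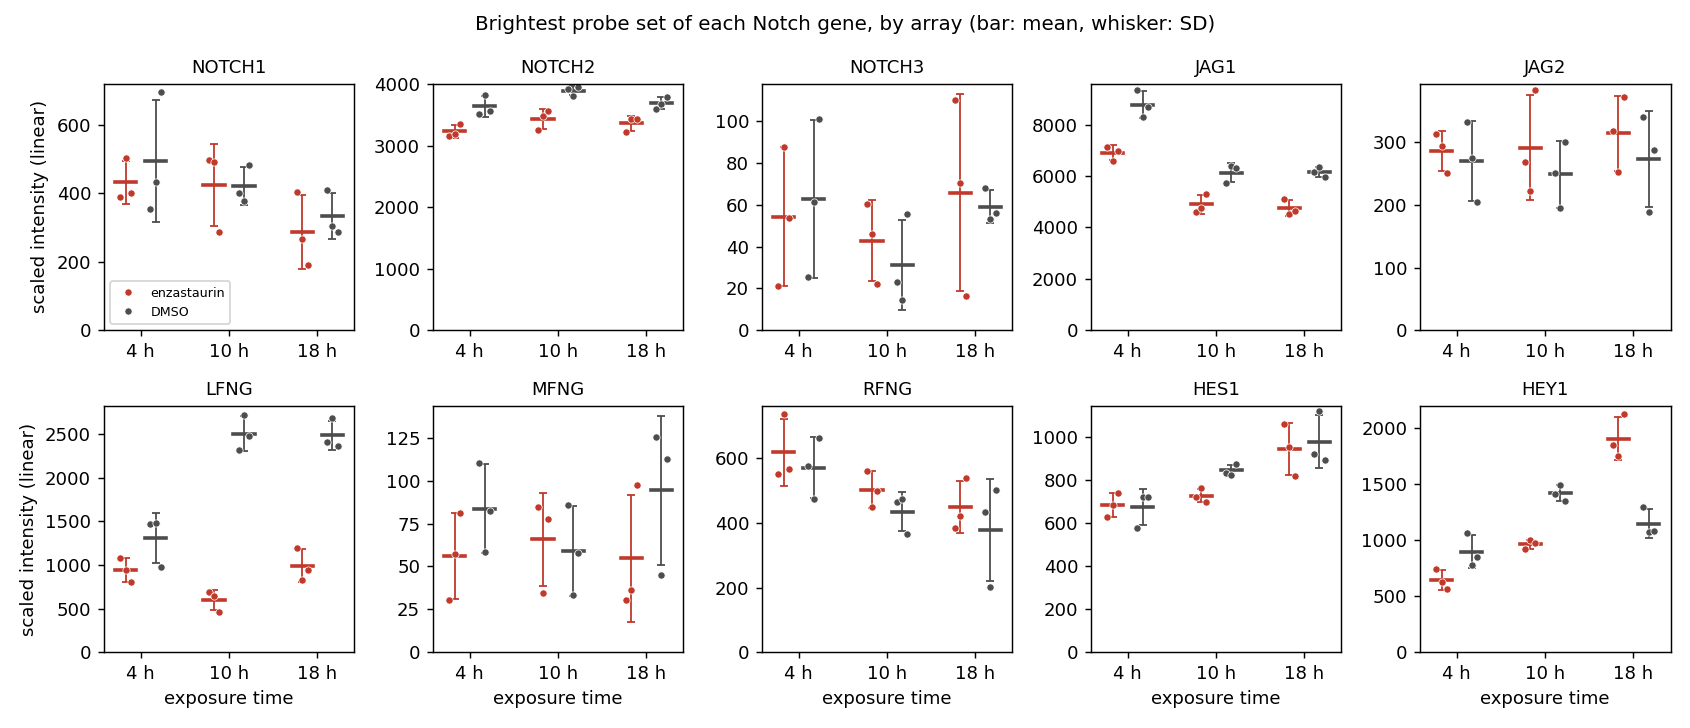
Scaled intensity on a linear axis of the main probe set of each of the 10 genes, by exposure time, with 1 point per array, enzastaurin in red left of DMSO in grey, the bar at the group mean and the whisker 1 SD. LFNG in DMSO arrays lies between 2319 and 2714 at 10 h, above all enzastaurin arrays, while HEY1 in enzastaurin lies below DMSO at 4 and 10 h and above it at 18 h.

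Of the Jagged ligands, JAG1, a membrane protein that activates Notch receptors on adjacent cells, was the one called, and it was lower in enzastaurin than in DMSO. At 4 h its intensity was 7151, 6581 and 6983 in enzastaurin arrays, against 9356, 8298 and 8706 in DMSO arrays. At 10 h it was 4601, 4775 and 5314 in enzastaurin, against 5731, 6377 and 6313 in DMSO. At 18 h it was 5112, 4522 and 4631 in enzastaurin, against 6177, 6350 and 5969 in DMSO. Every enzastaurin array was below every DMSO array of the same time. The log2 change was -0.35 at 4 h (SE 0.07, adjusted p = 0.0099, limma), -0.33 at 10 h (SE 0.07, adjusted p = 0.0051) and -0.38 at 18 h (SE 0.07, adjusted p = 7e-04). These correspond to folds of 0.787, 0.797 and 0.771. The 4 h call was lost without DMSO replicate 1 (-0.30, adjusted p = 0.069) or without enzastaurin replicate 2 (-0.31, adjusted p = 0.06). The call was also lost at 4 h and at 10 h when array medians were subtracted (-0.23, adjusted p = 0.25, and -0.31, adjusted p = 0.077).

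The main JAG1 probe set is one of a kind (suffix x_at) whose probes can also bind other transcripts, so its other probe sets matter. Of the 5 others, 3 passed the level filter, and all 3 gave negative changes at every time. In a fit of every probe set on its own, the second brightest was called at 10 h (-0.36, adjusted p = 0.0083, limma) and had -0.32 at 4 h (adjusted p = 0.055) and -0.20 at 18 h (adjusted p = 0.12). The fourth brightest was called at 18 h (-0.57, adjusted p = 0.019). The third brightest had -0.27, -0.18 and -0.16 at 4, 10 and 18 h and was not called. When all 6 sets were averaged, the 2 dim ones included, the change was -0.18 at 4 h, -0.15 at 10 h and -0.13 at 18 h, and none was called.

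JAG2, the second Jagged ligand, lay between 222.0 and 384.1 in enzastaurin arrays and between 189.5 and 341.0 in DMSO arrays over all times. The groups overlapped at each time. Its log2 changes were 0.10, 0.20 and 0.22 at 4, 10 and 18 h (SE 0.24 each), and the 95% interval at 18 h ran from -0.28 to 0.71.

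NOTCH2 was measured with a narrow spread. At 4 h its intensity lay between 3150 and 3355 in enzastaurin arrays and between 3515 and 3826 in DMSO arrays. At 10 h it lay between 3251 and 3561 in enzastaurin and between 3815 and 3951 in DMSO, and at 18 h between 3218 and 3435 in enzastaurin and between 3596 and 3792 in DMSO. The groups did not overlap at any of these times, a separation whose share over all genes was not computed, and no change was called. The log2 change was -0.17 at 4 h (adjusted p = 0.2, limma), -0.18 at 10 h (adjusted p = 0.058) and -0.13 at 18 h (adjusted p = 0.14), with an SE of 0.06 each. The 10 h value was past the threshold under 4 alternatives, among them quantile normalization (-0.20, adjusted p = 0.034) and array weights (-0.20, adjusted p = 0.018). The other 3 probe sets of NOTCH2 had negative changes at every time, between -0.45 and -0.06, none called. NOTCH2 has close paralogs of the NOTCH2NL family, and its main probe set is also of the x_at kind, so what share of its signal comes from each transcript is uncertain.

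NOTCH1, the receptor best known from leukaemia, lay between 190.2 and 503.6 in enzastaurin arrays and between 285.7 and 694.0 in DMSO arrays. The groups overlapped at each time, and its changes of -0.14, -0.02 and -0.25 (SE 0.26 each) were not called. NOTCH3 lay between 16.4 and 110.2 in enzastaurin arrays and between 14.6 and 101.0 in DMSO arrays, with overlap at each time. Its level was under the median of all probe sets.

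LFNG, the lunatic fringe glycosyltransferase, had the largest change among the members. At 4 h its intensity was 1085, 946 and 803 in enzastaurin arrays, against 1465, 1479 and 982 in DMSO arrays. At 10 h it was 690, 640 and 466 in enzastaurin, against 2319, 2714 and 2478 in DMSO. At 18 h it was 1196, 826 and 947 in enzastaurin, against 2408, 2680 and 2368 in DMSO. The groups overlapped at 4 h and were far apart at 10 and 18 h. The log2 change was -0.45 at 4 h (SE 0.16, adjusted p = 0.22, limma), -2.05 at 10 h (SE 0.16, adjusted p = 3.6e-08) and -1.33 at 18 h (SE 0.16, adjusted p = 5.7e-06). The folds at 10 and 18 h were 0.241 and 0.398. Ordered by mean, LFNG was highest in DMSO at 10 h and DMSO at 18 h, whose arrays overlapped, then came DMSO at 4 h, enzastaurin at 18 h and enzastaurin at 4 h, each overlapping the next, and enzastaurin at 10 h was lowest and stood apart.

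The only other LFNG probe set averaged 76.0 over the arrays and was under the filter, with changes of -0.19, 0.34 and -0.33 that were not tested. The LFNG result therefore rests on 1 probe set. When both sets were averaged the change was -0.85 at 10 h (adjusted p = 0.017, limma) and -0.83 at 18 h (adjusted p = 0.011), still called.

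RFNG, radical fringe, lay between 384.4 and 736.4 in enzastaurin arrays and between 200.4 and 661.9 in DMSO arrays. The groups overlapped at each time, and its changes of 0.11, 0.21 and 0.32 (SE 0.23 each) were not called. The upper end of its 95% interval at 18 h was 0.81. MFNG, manic fringe, was dim in both groups, between 30.5 and 97.3 in enzastaurin arrays and between 33.4 and 125.7 in DMSO arrays, with overlap at each time.

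HEY1, a repressor of the hairy and enhancer-of-split related family, was lower in enzastaurin early and higher late. At 4 h its intensity was 741, 628 and 567 in enzastaurin arrays, against 1062, 777 and 852 in DMSO arrays. At 10 h it was 922, 1002 and 973 in enzastaurin, against 1414, 1496 and 1348 in DMSO. At 18 h it was 1849, 1747 and 2122 in enzastaurin, against 1295, 1072 and 1079 in DMSO. The groups did not overlap at any time, with enzastaurin lower at 4 and 10 h and higher at 18 h. The log2 change was -0.46 at 4 h (SE 0.12, adjusted p = 0.046, limma), -0.55 at 10 h (SE 0.12, adjusted p = 0.0045) and 0.72 at 18 h (SE 0.12, adjusted p = 0.00015). By mean level, enzastaurin at 18 h was highest, followed by DMSO at 10 h and DMSO at 18 h, each apart from the next. Enzastaurin at 10 h and DMSO at 4 h overlapped, and enzastaurin at 4 h was lowest and stood apart.

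The call of HEY1 at 4 h was marginal, and it was lost in 19 of 30 alternative settings, among them the omission of any 1 of 13 arrays. Those arrays are enzastaurin replicates 2 and 3 and DMSO replicates 1 and 3 of 4 h, all arrays of 10 h, and enzastaurin replicate 1 and DMSO replicates 2 and 3 of 18 h. Leaving out DMSO replicate 1 of 4 h gave -0.34 (adjusted p = 0.23), and leaving out enzastaurin replicate 3 of 4 h gave -0.37 (adjusted p = 0.2). Its second probe set gave -0.99 at 4 h (adjusted p = 8e-04, limma), -0.26 at 10 h (adjusted p = 0.35) and 0.66 at 18 h (adjusted p = 0.0031). Both HEY1 sets thus gave a called positive change at 18 h, and they differed in which of the earlier times was called. The calls of the main set at 10 and 18 h were kept in all 30 settings.

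**Figure D2:**
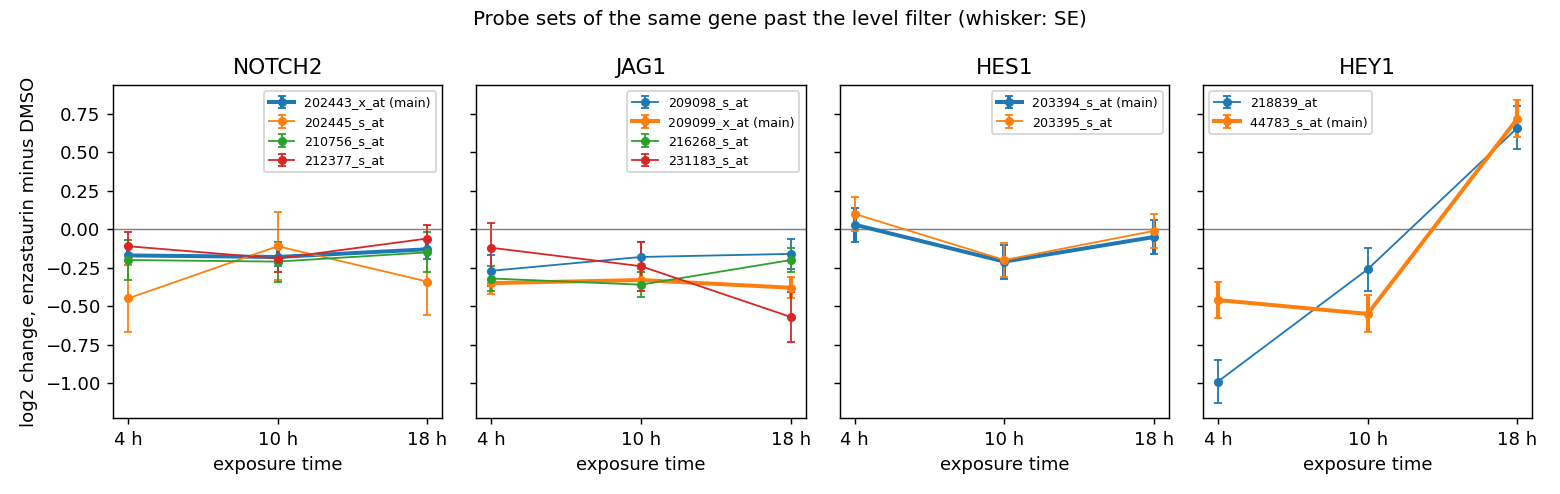
Log2 change, enzastaurin minus DMSO, by exposure time for every probe set past the level filter of NOTCH2, JAG1, HES1 and HEY1, with whiskers of 1 SE and the main set drawn thicker. All NOTCH2 and JAG1 sets lie below 0 at each time, and both HEY1 sets lie below 0 at 4 and 10 h and above 0 at 18 h.

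HES1, a repressor that also acts on its own promoter, was not called at any time. It lay between 629.3 and 737.0 in enzastaurin and 577.2 and 722.4 in DMSO at 4 h. At 10 h it lay between 699.7 and 761.5 in enzastaurin and 823.5 and 874.8 in DMSO, and at 18 h between 820.1 and 1061.3 in enzastaurin and 892.6 and 1117.6 in DMSO. The groups overlapped at 4 and 18 h, and at 10 h the enzastaurin arrays were all lower. The log2 changes were 0.03, -0.21 (adjusted p = 0.31, limma) and -0.05, with an SE of 0.11 each. The second bright set gave 0.10, -0.20 and -0.01. The 95% interval of the HES1 change at 18 h ran from -0.29 to 0.19, and that of HEY1 from 0.48 to 0.97. No test of the difference between the 2 genes was made.

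**Figure D3:**
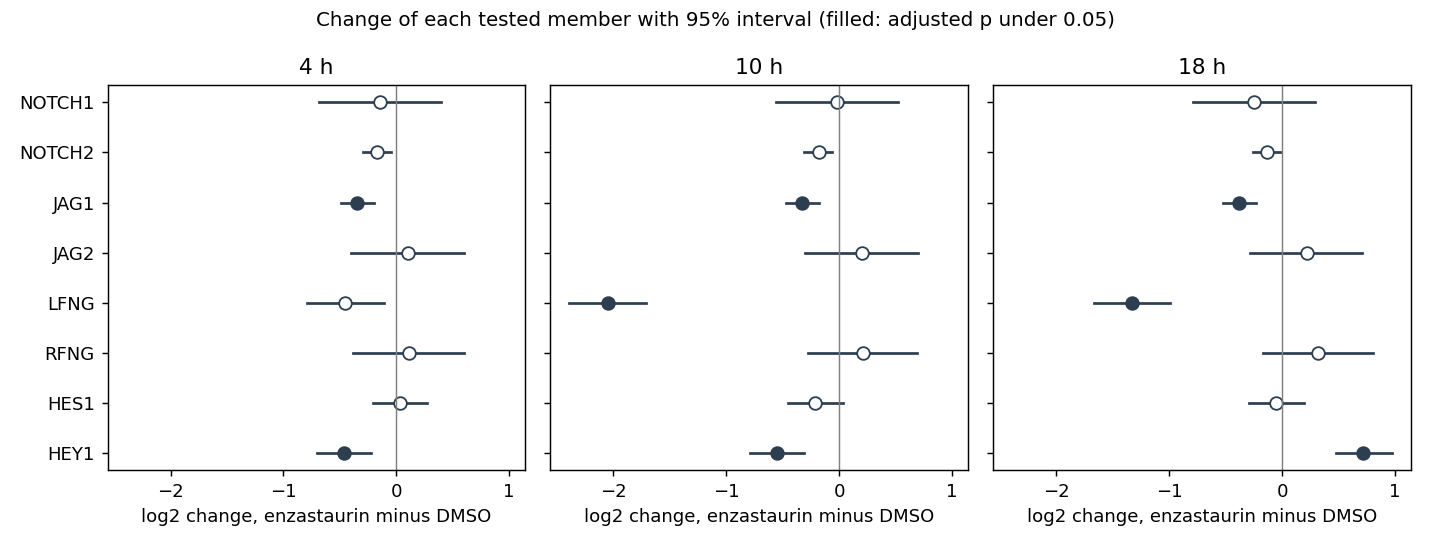
Log2 change, enzastaurin minus DMSO, of the 8 tested members at 4, 10 and 18 h, with lines for the 95% interval and filled points for an adjusted p under 0.05. LFNG at 10 h (-2.05) and 18 h (-1.33) lies farthest from 0, and HEY1 is the filled point above 0 at 18 h (0.72).

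Levels also moved in DMSO cells over time, which matters because each treatment comparison shares its DMSO arrays with these contrasts. From 4 to 10 h in DMSO, 3 of 8 members were called, where 18.1% of all genes were called. LFNG was higher at 10 h by 0.95 (adjusted p = 0.00041, limma) and HEY1 by 0.66 (adjusted p = 0.00054), and JAG1 was lower (-0.52, adjusted p = 4.9e-05). Between 4 and 18 h in DMSO 4 of 8 were called, where 20.3% of all genes were. At 18 h LFNG was higher by 0.94 (adjusted p = 0.00029), HES1 by 0.53 (adjusted p = 0.0023) and HEY1 by 0.36 (adjusted p = 0.034), and JAG1 was lower (-0.51, adjusted p = 3.1e-05). The HEY1 value at 18 h was not called without DMSO replicate 2 of 4 h (0.26), DMSO replicate 3 of 4 h (0.33) or DMSO replicate 1 of 18 h (0.27), nor under 5 other settings. With the mean over probe sets LFNG at 10 h (0.55, adjusted p = 0.093) and HES1 at 18 h (0.41, adjusted p = 0.058) were not called. RFNG had -0.65 at 18 h (adjusted p = 0.055) and was past the threshold without DMSO replicate 3 of 18 h (-0.90, adjusted p = 0.013), DMSO replicate 1 of 18 h (-0.80) or DMSO replicate 2 of 4 h (-0.78).

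The difference between treatment effects was tested directly. Between 4 and 10 h 1 of 8 members was called, where 1.41% of all genes were, and this was LFNG, whose effect was more negative at 10 h by -1.60 (SE 0.23, adjusted p = 0.00091, limma). With its dim probe set averaged in, that LFNG value was -0.53 and not called. Between 10 and 18 h 1 of 8 was called against 2.23% of all genes, and this was HEY1, whose effect was more positive at 18 h by 1.27 (SE 0.16, adjusted p = 0.00021). The LFNG effect at 18 h was 0.72 above that at 10 h, which was not called (adjusted p = 0.12). Between 4 and 18 h 2 of 8 were called against 7.78% of all genes, with HEY1 at 1.18 (adjusted p = 9.2e-05) and LFNG at -0.88 (adjusted p = 0.02). The LFNG value between 4 and 18 h was not called without DMSO replicate 3 of 4 h (-0.69), DMSO replicate 2 of 18 h (-0.82), enzastaurin replicate 1 of 4 h (-0.78) or enzastaurin replicate 2 of 18 h (-0.76). The second HEY1 probe set gave 0.92 between 10 and 18 h (adjusted p = 0.023) and 1.64 between 4 and 18 h (adjusted p = 3.2e-05). For JAG1 the effects differed by 0.02 between 4 and 10 h (95% interval -0.19 to 0.23) and by -0.03 between 4 and 18 h (-0.24 to 0.18).

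Of 64 further Notch pathway genes, 61 had a single-gene probe set and 51 were tested. By limma, 0 were called higher and 1 was called lower at 4 h, 0 higher and 4 lower at 10 h, and 6 higher and 3 lower at 18 h. At an unadjusted p under 0.05 the counts were 1 higher and 3 lower at 4 h, 3 higher and 8 lower at 10 h, and 9 higher and 6 lower at 18 h. Their median change was 0.017, -0.052 and -0.001 at 4, 10 and 18 h, close to that of all genes. The shares called, 1.96%, 7.84% and 17.6% of the 51 genes, lie near the 1.81%, 8.45% and 16% of all genes at 4, 10 and 18 h. At an unadjusted p under 0.05 they were 7.84%, 21.6% and 29.4% of the 51 genes, beside 12.6%, 21.1% and 28% of all genes.

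Of 8 further genes listed as targets 4 were tested, and whether Notch drives them in these cells was not tested. NRARP alone was called at 4 h, where 1.81% of all genes were, none at 10 h, and HES6 alone at 18 h, where 16% were. HES2 (-0.59, 0.88 and 0.11 at 4, 10 and 18 h) and HES4 (0.00, -0.22 and 0.00) were not called at any time. NRARP, a negative regulator of Notch signalling that is itself a target, had 387.4, 335.6 and 320.6 in enzastaurin arrays at 4 h, against 669.5, 512.9 and 592.0 in DMSO arrays. Its groups did not overlap, and the change was -0.74 (adjusted p = 0.0018, limma). At 10 and 18 h it had -0.37 (adjusted p = 0.074) and 0.23 (adjusted p = 0.25), and its effect at 18 h was more positive than at 4 h by 0.96 (adjusted p = 0.0013). HES6, a HES family gene known as an inhibitor of HES1, had 1677.9, 1212.2 and 1388.2 in enzastaurin arrays at 18 h, against 768.9, 733.7 and 675.5 in DMSO arrays. The groups did not overlap, and the change was 0.95 (adjusted p = 4.4e-05). Its effect at 18 h was more positive than at 10 h by 1.27 (adjusted p = 9e-04) and than at 4 h by 1.12 (adjusted p = 0.00085). The NRARP and HES6 calls named here were kept in all 30 settings.

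**Figure D4:**
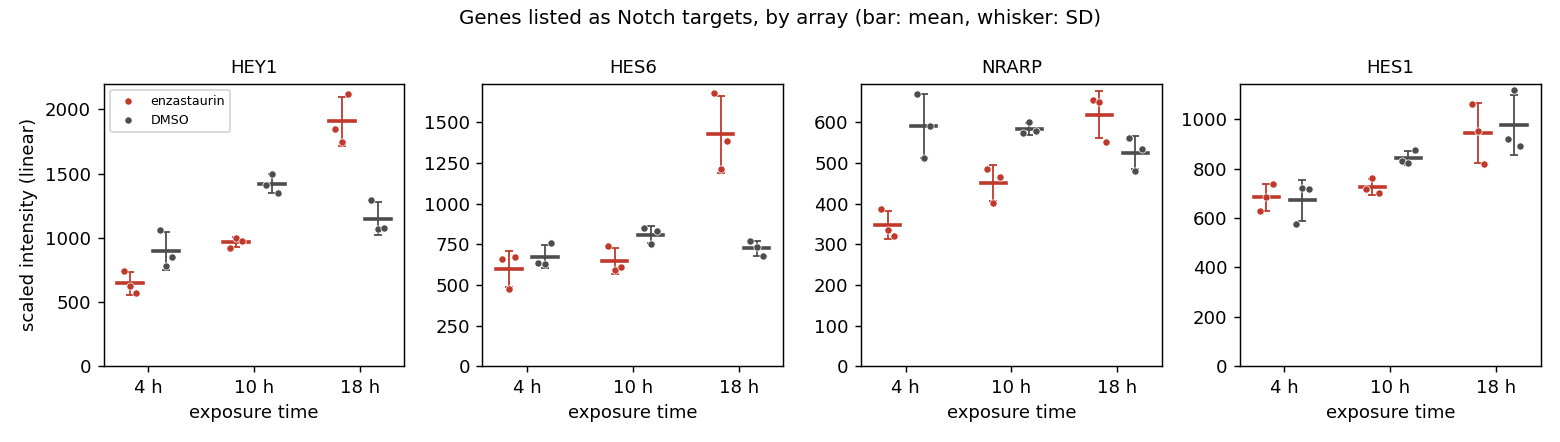
Scaled intensity on a linear axis of HEY1, HES6, NRARP and HES1 by exposure time, with 1 point per array, enzastaurin in red left of DMSO in grey, the bar at the group mean and the whisker 1 SD. NRARP is lower in enzastaurin at 4 h, HEY1 and HES6 are higher in enzastaurin at 18 h, and the HES1 groups overlap at 4 and 18 h.

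In receptor turnover 1 of 9 tested genes was called at 18 h, where 16% of all genes were. NEDD4, a ubiquitin ligase that acts on membrane proteins, had 1970.1, 1844.9 and 1653.8 in enzastaurin arrays at 18 h, against 2527.2, 2595.8 and 2570.1 in DMSO arrays, with no overlap and a change of -0.49 (adjusted p = 3.1e-05, limma). Its effect at 18 h was more negative than at 10 h by -0.45 (adjusted p = 0.015) and than at 4 h by -0.49 (adjusted p = 0.0032). The first of these was not called without enzastaurin replicate 1 of 10 h (-0.41, adjusted p = 0.051) or with array medians subtracted (-0.47, adjusted p = 0.23). In the nuclear complex 1 of 8 tested genes was called at 10 h, where 8.45% of all genes were, and 1 of 8 at 18 h, where 16% were. MAML2, a Mastermind coactivator, had 1354.1, 1343.5 and 1312.9 in enzastaurin arrays at 18 h, against 727.4, 1017.1 and 1016.2 in DMSO arrays, which did not overlap, a change of 0.55 (adjusted p = 0.0015). CREBBP, a histone acetyltransferase, had -0.30 at 10 h (adjusted p = 0.035). RBPJ, the DNA-binding partner of Notch, was not called at any time.

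Among the cleavage genes the protease genes ADAM17 (-0.47, adjusted p = 0.017, limma) and ADAM10 (-0.30, adjusted p = 0.027) were lower in enzastaurin than in DMSO at 10 h. APH1B, a gamma-secretase subunit, was higher in enzastaurin than in DMSO at 18 h (0.85, adjusted p = 0.028), with intensities of 229.9, 271.2 and 308.6 in enzastaurin and 107.2, 160.5 and 165.5 in DMSO. Its effect at 18 h was more positive than at 4 h by 1.54 (adjusted p = 0.011), or by 0.83 with the mean over its probe sets, which was not called (adjusted p = 0.12). Among the nuclear repressors CTBP2, a corepressor, was lower in enzastaurin at 10 h (-0.39, adjusted p = 0.0014), a call lost with the mean over its probe sets (-0.29, adjusted p = 0.085). The main CTBP2 probe set is also of the x_at kind, whose probes can bind other transcripts. TLE3, a Groucho family corepressor (0.29, adjusted p = 0.026), and SPEN, which binds RBPJ (0.28, adjusted p = 0.031), were higher in enzastaurin than in DMSO at 18 h. TLE4, of the same Groucho family and outside the 3 genes named per role, was lower in enzastaurin at 18 h (-0.45, adjusted p = 0.036). The TLE4 call was not followed over the alternative settings, so how firm it is was not tested. TLE3 had a more positive effect at 18 h than at 4 h by 0.54 (adjusted p = 0.0072), which was not called with array medians subtracted (0.42) or with the mean over probe sets (0.33). The CTBP2 effect was more negative at 10 h than at 4 h by -0.40 (adjusted p = 0.049), a call lost in 24 of 30 settings, 16 of them the omission of 1 array, with -0.06 for the mean over probe sets. DLL1, a Delta-like ligand, was higher in enzastaurin than in DMSO at 18 h (0.98, adjusted p = 0.044) at dim intensities of 113.8, 135.0 and 132.2 in enzastaurin and 132.0, 35.3 and 33.4 in DMSO, which overlapped. Without DMSO replicate 1 of 18 h the DLL1 change was 1.5. NEURL1B, a ubiquitin ligase for ligands, was lower in enzastaurin at 18 h (-0.53, adjusted p = 0.047). The DLL1 and NEURL1B calls were lost in 20 and 18 of 29 settings, those of ADAM10, ADAM17, CREBBP and SPEN in 7, 5, 8 and 8 of 30 settings, that of TLE3 at 18 h in 6 of 30 and that of APH1B at 18 h in 6 of 29. Averaged over all probe sets of the gene, ADAM17 and CREBBP had -0.08 and -0.05 at 10 h.

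**Figure D5:**
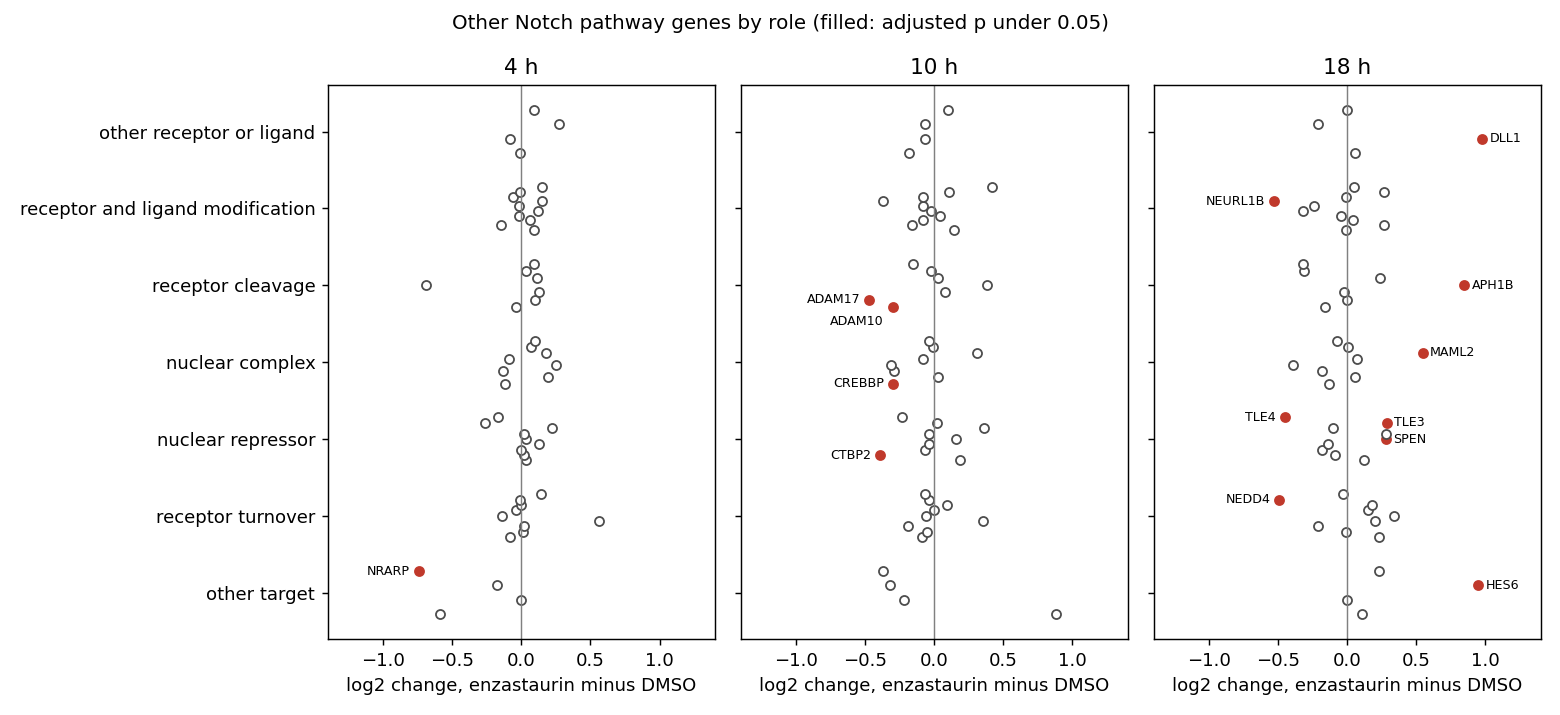
Log2 change, enzastaurin minus DMSO, of the 51 other tested pathway genes by role at 4, 10 and 18 h, with filled and named points for an adjusted p under 0.05. NRARP is the only filled point at 4 h, all 4 filled points at 10 h lie below 0, and at 18 h 6 filled points lie above 0 and 3 below.

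For the 3 members with a called treatment change, the genes whose log2(intensity + 16) followed theirs most closely over the 18 arrays were listed by Pearson correlation, as a description, since all arrays share the treatment and time differences. For JAG1 they were MAFF (0.961), EDN1 (0.916) and TDP1 (0.916). For LFNG they were PNMA1 (0.928), ZMIZ1 (0.924) and SMAD6 (0.915). For HEY1 they were CHPF2 (0.922), TPBG (0.921) and the long non-coding RNA NORAD (0.919).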

How the data were processed

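Signal intensities of 54613 probe sets on Affymetrix HG-U133 Plus 2.0 arrays were deposited by the authors on a linear scale, made with GCOS 1.2 per the submitters' processing notes. The 2% trimmed mean was 498.2 to 498.5 in each array, so arrays had been scaled to a common level, and no detection calls were used. Of the probe sets, 41091 were annotated to 1 gene symbol, 1801 to several and 11721 to none, and only the first kind was used. One probe set per gene was kept, by highest mean, and genes under the median level were left out.

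Values were analysed as log2(intensity + 16) in limma 3.58.1 (R 4.3.3), with 1 mean per group over all 18 arrays, a trend on mean level, and Benjamini-Hochberg adjustment over 12376 genes. The number of arrays limits precision, and the median SE of a change was 0.134. The fit was tested on simulated data. Deviations from the group means correlated at -0.0758 to 0.0383 between arrays with the same replicate number, which gave no ground for pairing. Arrays of a group correlated at 0.951 to 0.969. Each choice was varied alone: the offset (1 or 64), the level filter (none, or the brightest 25% of probe sets), scaling (quantile, or array medians subtracted), probe sets (their mean per gene, or each alone), weights per array, no trend, a fit on the compared groups, a replicate block, and 1 array left out at a time.

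The members and lists were chosen with earlier results of these data known. All members were named, with up to 3 called genes per role of the pathway and the 3 genes most like each called member. Plots were made in matplotlib 3.10.9 under Python 3.11.15.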

Additional observations from a re-analysis of the deposited data

Results flagged for a closer look

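Treatment effects that differed between times, by a test of the difference itself (limma, adjusted p under 0.05), are collected here. Among the members, the LFNG effect was more negative at 10 h than at 4 h by -1.60 and at 18 h than at 4 h by -0.88. The HEY1 effect was more positive at 18 h than at 10 h by 1.27 and than at 4 h by 1.18. Among the other pathway genes, the HES6 effect at 18 h exceeded that at 10 h by 1.27 and that at 4 h by 1.12. The NRARP effect at 18 h exceeded that at 4 h by 0.96, the APH1B effect by 1.54 and the TLE3 effect by 0.54. The APH1B value was lost as a call with the mean over probe sets (0.83), and the TLE3 value with that mean (0.33) and with array medians subtracted (0.42). The NEDD4 effect at 18 h lay below that at 10 h (-0.45) and at 4 h (-0.49). The CTBP2 effect at 10 h lay below that at 4 h (-0.40), a call that was lost in 24 of 30 settings.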

How the results depend on the processing

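Over 30 alternative settings, 18 of which left out 1 array, no followed value changed sign while called. The genes followed were the members and up to 3 called genes per role of the pathway, so TLE4 was not among them. Of 19 called member results, 10 were never lost, among them LFNG and HEY1 at 10 and 18 h. The count of 2 members called at 4 h became 1 with no level filter, quantile normalization, the mean over probe sets, no trend, only the groups compared, or every probe set on its own, and 0 with array medians subtracted. Leaving out 1 array gave 0 to 2, with 0 without DMSO replicate 1 or enzastaurin replicate 2 of 4 h. The count of 1 for the difference between 4 and 10 h became 0 with the mean over probe sets (LFNG -0.53). The count of 2 for the difference between 4 and 18 h became 1 with the mean over probe sets (LFNG -0.51) and with no trend, and lay between 1 and 2 when 1 array was left out. Subtracting array medians shifted the median change of all genes at 4 h to 0.116 and gave 79 called genes, 54 of them higher, where 224 genes were called without it, 69 of them higher. The JAG1 calls were lost at all 3 times with the mean over probe sets. The causes were not tested. With a replicate block no member call was lost, and NOTCH2 at 10 h was -0.18 (adjusted p = 0.05, limma), just past the threshold. Genes under the level filter, NOTCH3 and MFNG among them, were left out by that choice, and no test of these 2 members without the filter is given.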
